A study of Mus musculus with 20 samples.

Results

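The nuclear-encoded subunit genes of the mitochondrial respiratory chain were followed through neuronal differentiation of control and HPRT knockdown mouse ESD3 embryonic stem cells. Members were chosen by gene symbol alone, as the genes named Nduf with a letter a, b, c, s or v and a number, Sdha to Sdhd, and those starting with Uqcr, Cox4 to Cox8 or Atp5, with pseudogene symbols left out. The rule found 85 of the 37561 genes in the tables: 36 of complex I, 4 of complex II, 8 of complex III, 19 of complex IV and 18 of complex V. Their typical level passed the filter used for testing, a log2 normalized count of at least 4, in 77 genes, and it reached 8 in 64. The 8 genes under the filter were Ndufs5, Cox4i2, Cox6a2, Cox7b2, Cox8b, Cox8c, Atp5g2 and Atp5l2. Atp5l2 had no reads and is annotated as a pseudogene, though its symbol does not say so. Complexes were assigned by symbol alone, so that Cox7a2l, a factor that joins complexes III and IV, counts in complex IV. 3 of the genes caught by the rule were taken not to be subunits of the complexes. Cox4nb is a member of the endoplasmic reticulum membrane complex, Atp5s is a coupling factor of the ATP synthase, and Atp5sl is a relative of Atp5s. They stay in all counts.

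Both lines were ESD3 cells of strain 129s2/SvPas, maintained on feeder layers of mouse embryo fibroblasts. The control line carried a retroviral short hairpin RNA against luciferase and the HPRT knockdown line one against HPRT, the purine salvage enzyme that is deficient in Lesch Nyhan disease. Each line was grown as spherical neural masses (SNM, floating aggregates of neural precursors) and differentiated toward dopaminergic neurons, with RNA sequenced on each day from 0 to 4 and on every even day from 6 to 14. The 20 libraries thus held 1 for each line and time point, without replicates. The study describes pooling the RNA of a time point and condition before sequencing, without saying how many cultures it came from. Each line was made once here, so the days are successive collections of the same 2 lines. The p-values thus measure only the spread between days. In bulk RNA, fewer cells of a type and less RNA per cell cannot be told apart.

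The respiratory chain passes electrons from NADH and succinate to oxygen and uses the energy to pump protons, and the ATP synthase makes ATP from the proton gradient. Complex I (NADH dehydrogenase), complex III (cytochrome bc1), complex IV (cytochrome c oxidase) and complex V (ATP synthase) are built from nuclear-encoded and mitochondrially encoded subunits, while complex II (succinate dehydrogenase) is wholly nuclear-encoded and is also an enzyme of the citric acid cycle. Neurons rely largely on oxidative phosphorylation. A search by symbol found none of the mitochondrially encoded subunits among the 37561 genes, so they were not analysed here.

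The regulatory DNA of these genes is shown first. Whether it bears on their movement from day to day was not tested. RefSeq promoter windows (assembly GRCm38.p6) were matched by gene ID for 69 of the 85 genes, and the 250 bases before the annotated start were searched on both strands. The letters GCGCATGCG, bound by nuclear respiratory factor 1, lay in 6 of the 69 windows (8.70%) and in 1.64% of the windows of 27025 genes. The letters CCGGAAG, recognized by ETS factors such as GABP, lay in 12 windows (17.4%) against 7.83% of all genes. AAGATGGC, bound by YY1, lay in 2 windows (2.90% against 1.83%), TCAAGGTCA, bound by estrogen-related receptors, in 1 window (1.45% against 0.422%), and TGACGTCA, bound by CREB, in 4 windows (5.80% against 1.77%). The windows of the subunit genes had a median GC content of 56.0% and those of all genes 52.0%. A match is a description of the letters and no evidence of binding.

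Windows of 5 genes are printed 5′ to 3′ on the strand of the gene, with any of the motifs searched in capitals. They were picked by the results below and do not compare genes with and without the letters. Cox6a1 and Ndufa8 are the called genes among the 6 with the NRF1 letters, and both calls were lost with all 10 days. No window is printed for Cox6c, which was lower on all 10 days. Cox6a1 (chr5:115348959-115349208, minus strand) and Ndufa8 (chr2:36049339-36049588, minus strand) held the NRF1 letters, and Cox6a1 also held CCGGAAG; in Cox6a1 the NRF1 letters lie on both strands as matches that overlap by all but 1 base. Ndufv3 (chr17:31519865-31520114, plus strand), Sdha (chr13:74350241-74350490, minus strand) and Atp5b (chr10:128083057-128083306, plus strand) are shown because they differed between the lines in the same direction on each of the 10 days, and they held none of the letters searched.
Cox6a1: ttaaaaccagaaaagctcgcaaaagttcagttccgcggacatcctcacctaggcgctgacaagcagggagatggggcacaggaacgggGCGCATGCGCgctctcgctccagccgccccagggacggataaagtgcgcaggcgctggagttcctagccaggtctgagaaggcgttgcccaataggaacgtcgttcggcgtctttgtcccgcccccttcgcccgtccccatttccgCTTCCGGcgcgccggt
Ndufa8: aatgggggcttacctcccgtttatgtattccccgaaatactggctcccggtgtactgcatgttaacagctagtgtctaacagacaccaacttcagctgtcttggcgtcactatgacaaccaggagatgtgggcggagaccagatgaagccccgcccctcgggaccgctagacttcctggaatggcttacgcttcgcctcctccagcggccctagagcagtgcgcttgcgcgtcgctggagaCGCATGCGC
Ndufv3: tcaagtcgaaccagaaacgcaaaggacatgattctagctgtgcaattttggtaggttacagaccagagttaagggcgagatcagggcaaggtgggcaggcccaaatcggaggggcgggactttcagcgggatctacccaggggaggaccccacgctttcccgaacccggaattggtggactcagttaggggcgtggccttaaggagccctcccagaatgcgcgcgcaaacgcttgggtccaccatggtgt
Sdha: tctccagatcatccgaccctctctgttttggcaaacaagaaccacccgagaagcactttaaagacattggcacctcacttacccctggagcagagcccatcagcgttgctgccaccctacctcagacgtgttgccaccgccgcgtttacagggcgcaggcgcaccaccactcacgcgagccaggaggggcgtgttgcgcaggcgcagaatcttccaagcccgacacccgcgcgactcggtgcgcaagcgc
Atp5b: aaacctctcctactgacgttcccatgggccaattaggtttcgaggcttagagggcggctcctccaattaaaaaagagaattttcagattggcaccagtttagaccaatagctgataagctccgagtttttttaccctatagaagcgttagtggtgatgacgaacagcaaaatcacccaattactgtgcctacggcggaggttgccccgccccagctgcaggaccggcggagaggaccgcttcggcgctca

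The deposited values give a log2 ratio between 2 libraries and no level, so levels could not be compared between genes. Unless stated otherwise a ratio below is the log2 difference, knockdown minus control, on the same day, and errors are standard deviations over the 9 days tested. Day 6 was left out of the tests, since the study treated it as discrepant, and is given beside them. The study gives an average read number, but read totals of single libraries were not used here, so the depth behind a value is unknown. The targeted gene was examined first: the ratio of Hprt lay between -5.00 and -2.53 and was below 0 on all 10 days, with a mean of -4.002 ± 0.89 (n = 9 days; exact sign-flip permutation test, two-sided, p = 0.00390625, the smallest that 9 days allow). By limma 26.2% of all genes tested were higher in the knockdown and 26.3% lower. In the lists that describe the cells, 5 of the 8 neuron transcripts tested, all 8 pluripotency transcripts, 6 of 7 muscle transcripts, 2 of 8 fibroblast (feeder) transcripts and 1 of 3 erythroid and endothelial transcripts were lower and none of these was higher. Of 11 glia and myelin transcripts 6 were higher and none lower, of 7 neural progenitor transcripts 2 were higher and 2 lower, and of 2 endoderm transcripts 1 was higher and 1 lower.

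Most subunit genes were not called different between the lines over the whole course. By limma with Benjamini-Hochberg adjustment over 13608 genes, 6 of the 77 genes were higher in the knockdown and 6 were lower, together 15.6%, while 52.5% of all genes tested were called (26.2% higher and 26.3% lower). The largest mean difference was 1.60-fold, for Ndufv3, and it was the only called member past 1.5-fold. The median over the 77 genes of the mean ratio was -0.03, with the middle of the members between -0.10 and 0.08 (25th and 75th percentiles), against -0.35 and 0.36 over all genes. Among genes with a log2 count of at least 8, the standard deviation over genes was 0.17 to 0.31 for the 64 members and 0.55 to 0.85 for all 8248 genes on the 10 days. By complex, the calls were 5 of 35 for complex I, 1 of 4 for complex II, 3 of 14 for complex IV and 3 of 16 for complex V. In complex III limma called 0 of 8, and 0 of 8 had an unadjusted p under 0.05.

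**Figure D1:**
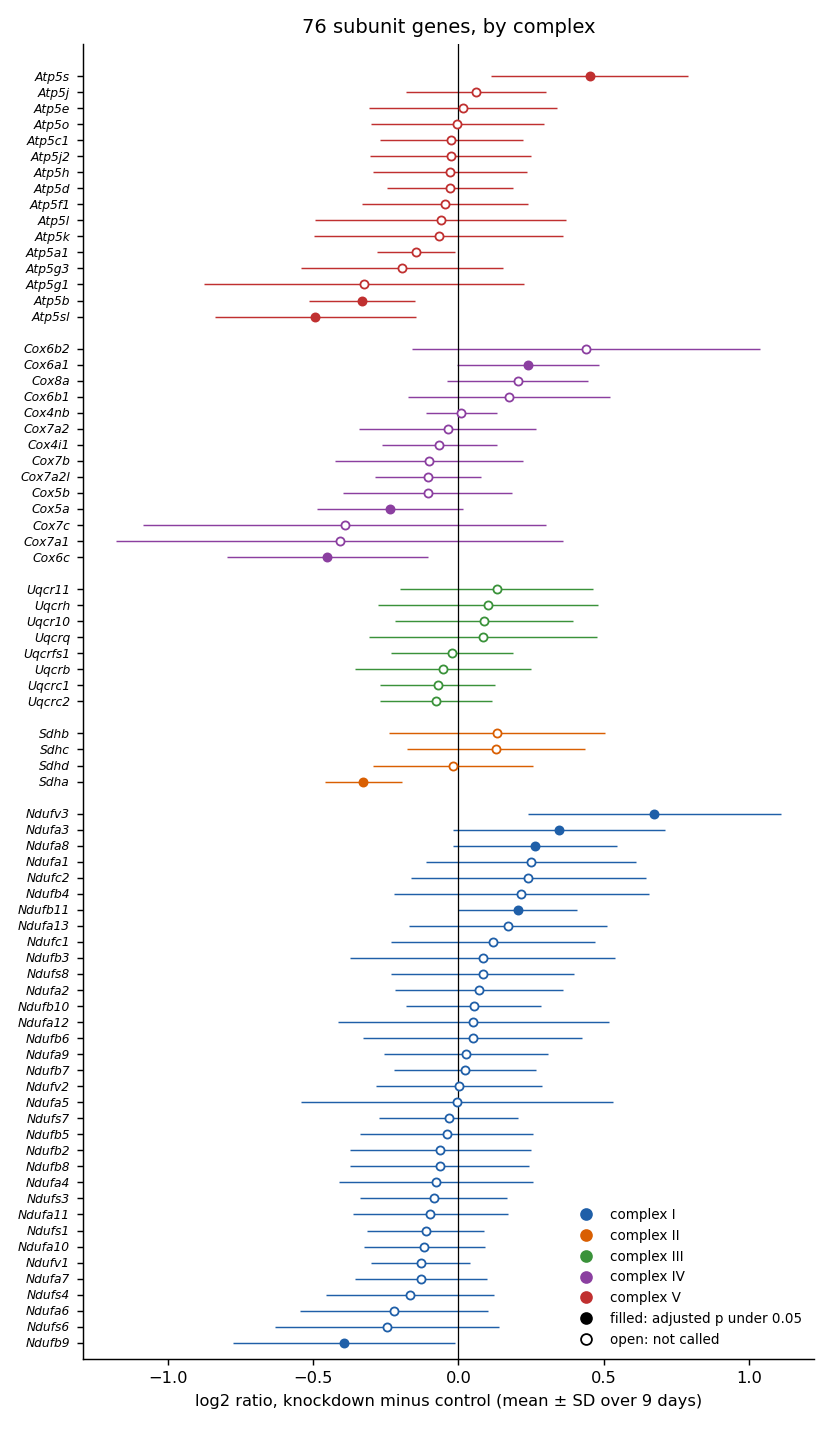
Mean log2 ratio (knockdown minus control, horizontal axis) of 76 of the 77 genes, grouped by complex, with bars of 1 standard deviation over 9 days. Filled points mark the 12 called genes, of which Ndufv3 at 0.67 lies farthest to the right and Atp5sl at -0.49 farthest to the left.

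Complex I oxidizes NADH at its peripheral arm and pumps protons in its membrane arm. Ndufv3, an accessory subunit of the NADH-oxidizing tip (NCBIM37 chromosome 17, 31657060 to 31668266, plus strand), had the highest mean ratio of the 77 genes tested. Its ratio was lowest on day 0 at 0.04, had a median of 0.60 and was highest on day 10 at 1.27. The knockdown library thus stood above the control library on all 10 days, by 0.80 on day 1, by 0.40, 0.33, 0.26 and 0.19 on days 2, 3, 4 and 6, and by 0.82, 1.27, 1.22 and 0.93 on days 8, 10, 12 and 14. The mean was 0.67 ± 0.44 (SE 0.139, limma adjusted p = 0.00279).

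3 other complex I genes were called higher, all of them accessory subunits. Ndufa3 (chromosome 7, 3568975 to 3571765) ranged from -0.42 on day 0 through a median of 0.37 to 0.75 on day 2, with a mean of 0.35 ± 0.36 (limma adjusted p = 0.0325). Ndufa8 (chromosome 2, 35891846 to 35904926), named after its values were seen, ranged from -0.27 to 0.57 around a median of 0.27, with a mean of 0.26 ± 0.28 (limma adjusted p = 0.0423). Ndufb11 (chromosome X, 20192452 to 20194745) ranged from -0.24 to 0.42 around a median of 0.18, with a mean of 0.20 ± 0.20 (limma adjusted p = 0.0478), and 12.9% of its exon bases overlap Rbm10 on the other strand. Ndufa3 and Ndufb11 were below 0 only on days 0 and 6, and Ndufa8 on these and on day 14. Ndufa3, Ndufa8 and Ndufb11 all lost the call with all 10 days, at limma adjusted p = 0.0878, 0.102 and 0.102.

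Ndufb9, an accessory subunit of the membrane arm (chromosome 15, 58765365 to 58771044), was the called complex I gene that was lower, and it too was named after its values were seen. It was at -1.05 on day 0 and highest at 0.15 on day 10, with a median of -0.45, and it was above 0 only on days 10 and 12. The mean was -0.40 ± 0.38 (limma adjusted p = 0.0217).

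None of 6 subunits described here of the catalytic core of complex I was called by limma. Mean ratios were -0.11 ± 0.20 for Ndufs1, -0.09 ± 0.25 for Ndufs3, -0.03 ± 0.24 for Ndufs7, 0.08 ± 0.31 for Ndufs8, -0.13 ± 0.17 for Ndufv1 and 0.00 ± 0.29 for Ndufv2. The limma adjusted p of the 6 lay between 0.143 for Ndufv1 and 0.997 for Ndufv2. Each of these means is smaller than its spread between days. Of the 50-base transcript sequences of Ndufs3, 43.0% also occur elsewhere in the genome.

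In complex II the 4 subunits did not move alike. Sdha, the flavoprotein that oxidizes succinate (chromosome 13, 74459702 to 74487728, minus strand), was lower in the knockdown on all 10 days, with a ratio of -0.59 on day 14, a median of -0.29 and a highest value of -0.16 on day 2. The mean was -0.33 ± 0.13 (SE 0.062, limma adjusted p = 0.00179), or 0.797-fold. Its partners were not called: Sdhb, the iron-sulfur subunit, averaged 0.13 ± 0.37, and the membrane anchors Sdhc and Sdhd averaged 0.13 ± 0.31 and -0.02 ± 0.28. On day 10 Sdhb stood at 0.75 and Sdha at -0.26.

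Complex III passes electrons from ubiquinol to cytochrome c, and its 8 genes lay close together. The mean ratio was -0.07 ± 0.20 for the core protein Uqcrc1, -0.08 ± 0.19 for Uqcrc2 and -0.02 ± 0.21 for the Rieske iron-sulfur protein Uqcrfs1. Over the 8 genes the mean ratio ran from -0.08 to 0.13.

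Complex IV reduces oxygen to water. Cox6c, a small transmembrane subunit (chromosome 15, 35855641 to 35868001, minus strand), was lower on all 10 days, from -1.14 on day 0 through a median of -0.38 to -0.04 on day 10. The mean was -0.45 ± 0.35 (limma adjusted p = 0.00785), and it stayed negative at -0.37 without day 0. Cox5a (chromosome 9, 57369039 to 57380231) ranged from -0.75 to 0.10 around a median of -0.22 and was above 0 only on day 2, with a mean of -0.24 ± 0.25 (limma adjusted p = 0.0467). Of its annotated exon bases, 38.7% overlap Gm17596 on the other strand, and whether strand was used in counting is not given in the sources used here. Cox4i1 and Cox5b, the other conserved subunits examined, averaged -0.07 ± 0.20 and -0.11 ± 0.29 and were not called. Of the 50-base transcript sequences of Cox5b, 56.5% also occur elsewhere in the genome.

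Complex V couples proton flow to ATP synthesis. Atp5b, the catalytic beta subunit (chromosome 10, 127520329 to 127527447, plus strand), was lower on all 10 days, with a ratio of -0.61 on day 0, a median of -0.29 and a highest value of -0.07 on day 10. The mean was -0.33 ± 0.18 (SE 0.072, limma adjusted p = 0.00369), or 0.794-fold. Atp5a1 and Atp5c1, the alpha and gamma subunits, averaged -0.15 ± 0.13 (limma adjusted p = 0.0713) and -0.02 ± 0.25 (0.829 by the same test). Atp5a1 was called by an exact sign-flip permutation test adjusted over all genes (p = 0.0349).

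Both other called genes of this group are the pair that the rule caught without being subunits. Atp5s (chromosome 12, 70825949 to 70845645) ranged from -0.21 on day 6 to 0.98 on day 2 around a median of 0.41, with a mean of 0.45 ± 0.34 (limma adjusted p = 0.00724). Atp5sl (chromosome 7, 26404433 to 26410570) ranged from -1.14 on day 10 to 0.76 on day 6 around a median of -0.45, with a mean of -0.49 ± 0.35 (limma adjusted p = 0.00506), which was no longer called with all 10 days (limma adjusted p = 0.0711). Cox4nb averaged 0.01 ± 0.12.

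**Figure D2:**
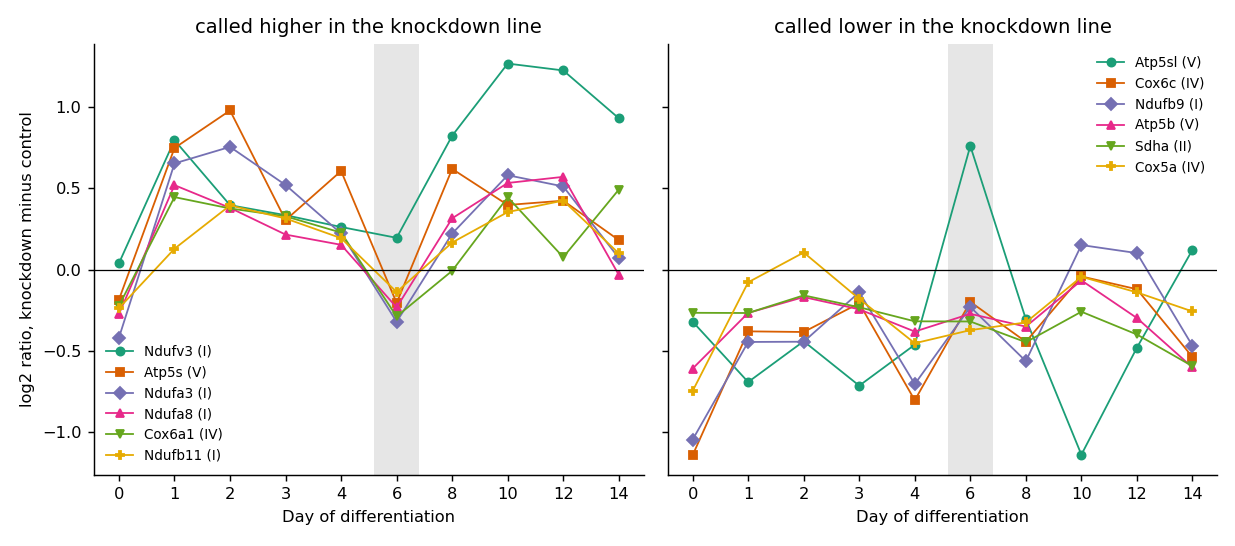
Log2 ratio (vertical axis) of the 12 called genes on each day (horizontal axis, days evenly spaced), the 6 higher ones on the left and the 6 lower ones on the right, with the complex in brackets and day 6 shaded. Ndufv3 stays above 0 and Sdha, Atp5b and Cox6c stay below 0 on all 10 days, while Atp5sl jumps to 0.76 on day 6.

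Although few genes were called over the course, the subunit genes moved together from day to day, across all 5 complexes. On day 0 the complex medians lay between -0.60 and -0.45, and 74 of the 77 genes were lower in the knockdown (96.1%), against 51.3% of all genes. On days 1 and 2 the medians lay between 0.10 and 0.28, with 16 and 10 genes lower. They were -0.47 to -0.21 with 63 genes lower on day 6. Day 10 gave 0.12 to 0.39 with 13 genes lower, and day 14 gave -0.30 to -0.07 with 57 genes lower. On days 3, 4, 8 and 12 the complex medians stayed between -0.16 and 0.14. Over all genes the median was at most 0.0237 from 0 on each day. With 1 library per line and day there is no replicate of a single day and no test of it.

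**Figure D3:**
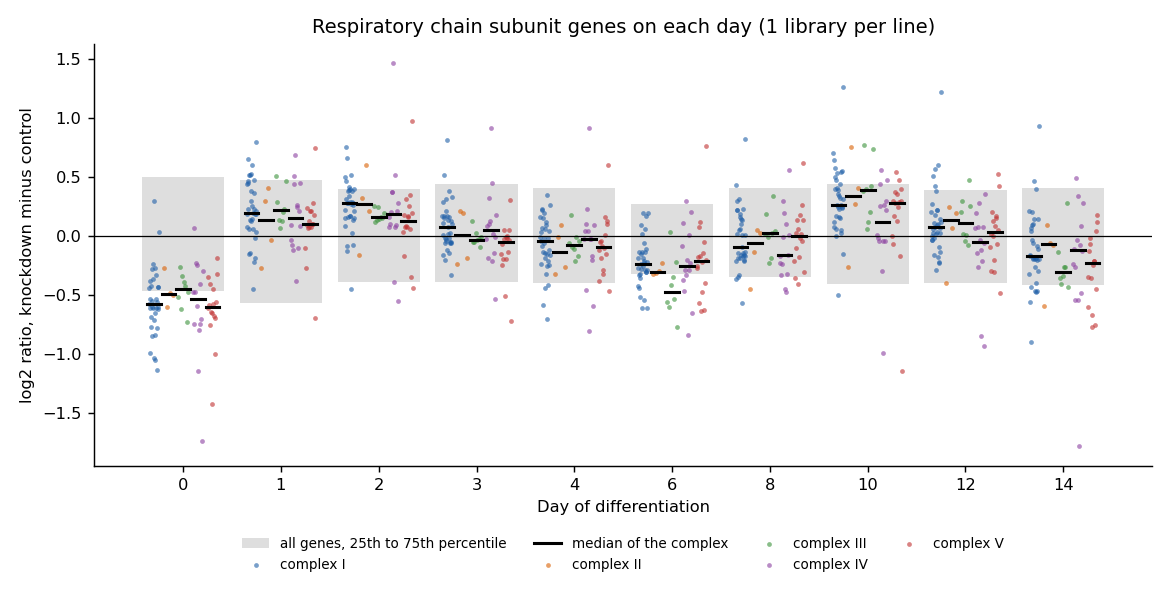
Log2 ratio (knockdown minus control, vertical axis) of 76 of the 77 genes on each day (horizontal axis), coloured by complex, with a black bar at each complex median over the 77 and the 25th to 75th percentile of all genes in grey. The bars of the 5 complexes sit together below 0 on days 0, 6 and 14 and above 0 on days 1, 2 and 10.

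The low values of day 0 were the largest shift. At least 1.5-fold lower in the knockdown on that day were 36 of the 77 genes, where 19.4% of all genes were. Ndufs6 of complex I stood at -1.13, Ndufb9 at -1.05, Cox6c at -1.14, Atp5g1, which encodes the proton-carrying c subunit, at -1.42, and Cox7c at -1.74. Only Ndufb4 (0.30), Cox4nb (0.07) and Ndufv3 (0.04) were above 0. Of the 50-base transcript sequences of Ndufb4, 41.3% also occur elsewhere in the genome, and of those of Cox7c 29.8% do. On day 6, 8 of the 77 genes were at least 1.5-fold lower, where 15.2% of all genes were.

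Transcript length moved with the ratio on day 0. Among genes that are not members, the median ratio of that day was -0.55 for 556 genes whose longest protein-coding transcript is under 1000 bases, -0.33 for 1000 to 2000 bases, -0.08 for 2000 to 4000 bases and 0.29 from 4000 bases on. The longest transcript of the 77 members had a median of 955 bases, against 3165 over all genes, and their median ratio on day 0 was -0.56. Within the same classes of length the median was -0.60 for 42 members, -0.54 for 24, -0.36 for 8 and -0.61 for 3, below that of the other genes in each class. Under 1000 bases, the medians of the other genes and of the members were -0.01 and -0.27 on day 6, 0.09 and 0.30 on day 10, and -0.05 and -0.13 on day 14. Cytosolic ribosomal protein genes, also short, had a median of -1.05 on day 0 and of 0.23 on day 6. These 2 sets were looked at after the members' values were seen, and the part of length in the result was not tested.

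The tables of consecutive days place the shifts within each line. From day 0 to day 1, all 77 genes rose in the knockdown line, by complex medians of 0.60 to 0.72, and 54 of them rose at least 1.5-fold, where 15.9% of all genes did. The rises ran from 0.03 for Cox7a2l to 1.504 for Atp5g1. In the control line 23 of the 77 genes rose over the same step, with complex medians of -0.20 to -0.02. The step and the ratio of day 0 share the knockdown library of day 0. Genes under 1000 bases that are not members rose by a median of 0.38 in the knockdown line over this step, where the 42 members of that length rose by 0.71, while cytosolic ribosomal protein genes moved by -0.03.

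Later steps also carried most of the genes with them. In the control line 69 of the 77 genes rose from day 4 to day 6 (median 0.26), 70 fell from day 6 to day 8 (median -0.41) and 72 rose from day 12 to day 14 (median 0.29). In the knockdown line 73 fell from day 2 to day 3 (median -0.28), 68 fell from day 3 to day 4 (median -0.20), 68 fell from day 6 to day 8 (median -0.27) and 68 rose from day 8 to day 10 (median 0.17). Over all genes the median of each step was at most 0.0153 from 0. In both lines the subunit genes were thus lower, relative to all genes, on day 8 than on day 6, and from day 4 to day 6 their median moved by 0.26 in the control line and by 0.07 in the knockdown line.

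**Figure D4:**
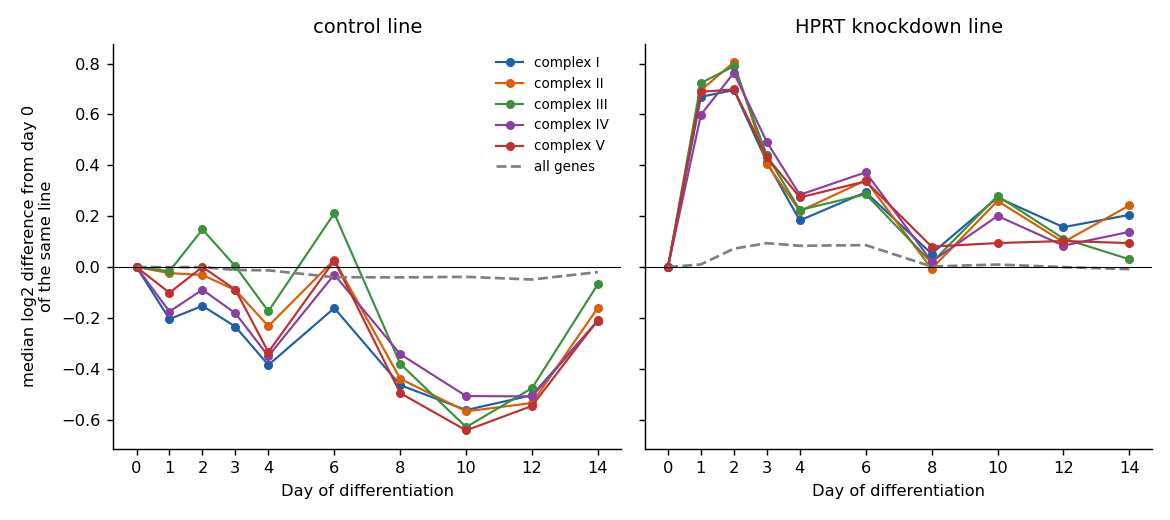
Median log2 difference from day 0 of the same line (vertical axis) for each complex and for all genes (dashed) against day (horizontal axis), built by adding the steps of consecutive days, with the control line on the left and the knockdown line on the right. The 5 complexes follow one course in each line: a rise by day 1 in the knockdown line only, and a low point on days 10 and 12 in the control line.

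Slopes over the days were fitted to values joined from these steps. In the control line 21 of the 77 genes fell with time and 1 rose by limma, where 23.9% of all genes fell and 19.7% rose. The steepest falls were those of Atp5g1 (-0.098 per day, limma adjusted p = 0.0173), Cox4nb (-0.070, limma adjusted p = 0.00523), Ndufa12 (-0.070, limma adjusted p = 0.0163) and Ndufs6 (-0.065, limma adjusted p = 0.00662), and the gene that rose was Atp5s (0.058, limma adjusted p = 0.0269). Without day 14, 54 genes fell, and without day 12, 9 did, but the shares of all genes in these fits are not given here. On day 14 Atp5g1 stood at -0.93 relative to day 0, Ndufs6 at -0.91 and Ndufa12 at -0.89, and 28.1% of the 50-base sequences of Atp5g1 and 24.0% of those of Ndufa12 also occur elsewhere in the genome, so that their reads could be shared with copies.

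In the knockdown line 2 genes rose and 3 fell, where 7.6% of all genes rose and 5.53% fell. Ndufv3 rose by 0.071 per day (limma adjusted p = 0.0462) and Ndufa6, an accessory complex I subunit, by 0.055 (limma adjusted p = 0.0427). Cox7a1, the heart and skeletal muscle form of Cox7a, fell by 0.093 per day (limma adjusted p = 0.0239), Cox4nb fell by 0.076 (limma adjusted p = 0.037) and Sdha fell by 0.053 (limma adjusted p = 0.038). Without day 0, from which all the genes had risen, 31 genes fell and 2 rose, and here too the share of all genes is not given. The difference in slope between the lines was called by limma for 1 gene, Ndufv3, at 0.068 ± 0.019 (SE) per day with an adjusted p = 0.0499, where 7.43% of all genes were called in that direction and 6.61% in the other. For Cox7a1 the difference was -0.115 ± 0.034 (SE) per day (limma adjusted p = 0.0525).

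Several subunits of complexes IV and V exist as tissue-specific isoforms. Cox6a2 and Cox8b, the heart and skeletal muscle forms of their subunits, were under the filter, and their ratios were the widest of all members. Cox6a2 (chromosome 7, 135348950 to 135349880, minus strand) stood at 1.83 on day 0 but at -6.65, -5.81 and -5.49 on days 6, 12 and 14, with a median of -1.21. Cox8b (chromosome 7, 148084842 to 148086345, minus strand) stood at 2.32 on day 0 but at -4.12, -6.46, -4.11 and -6.74 on days 3, 6, 12 and 14, with a median of -2.06. Both genes were thus much lower in the knockdown on days 6, 12 and 14 and higher on day 0. In a limma fit without the filter the adjusted p was 0.149 for Cox6a2 and 0.0922 for Cox8b.

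The muscle forms swung within the control line. From day 4 to day 6 Cox6a2 rose there by 5.74 and Cox8b by 6.54, from day 6 to day 8 they fell by 4.04 and 4.85, and from day 10 to day 12 they rose by 4.32 and 4.33. In the knockdown line Cox8b moved by at most 0.13 in either direction on each step from day 3 on. Because Cox8b is under the filter and log2 counts below 0 stand at 0, such steps cannot be told from values at the floor. Beside Cox6a2 and Cox8b stand the muscle markers. The median ratio of the 7 tested (Actc1, Ckm, Des, Myh6, Myog, Tnnt2 and Myh7) was 1.14 on day 0 and -7.95, -7.05 and -7.66 on days 6, 12 and 14, and it was between -2.08 and -1.41 on days 4, 8 and 10. On days 1, 2 and 3 the markers stood at -4.43, -5.07 and -6.52, where Cox6a2 was at 1.13, -1.14 and -3.0 and Cox8b at -2.45, -1.46 and -4.12. None of the 10 muscle markers reached a log2 count of 8. The part of these cells in the result was not tested. Cox7a1 itself passed the filter, and its ratio fell to -1.78 on day 14, with a mean of -0.41 ± 0.77 (limma adjusted p = 0.167).

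**Figure D5:**
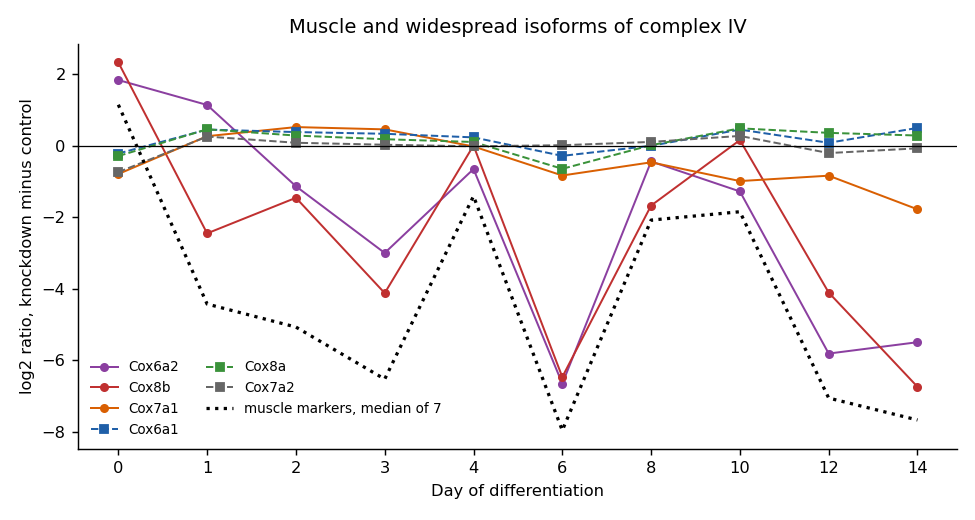
Log2 ratio (vertical axis) on each day (horizontal axis, days evenly spaced) of the muscle forms Cox6a2, Cox8b and Cox7a1 (solid), their widespread counterparts Cox6a1, Cox8a and Cox7a2 (dashed) and the median of 7 muscle markers (dotted). Cox6a2, Cox8b and the muscle markers are all low on days 6, 12 and 14, the markers are also low on days 1 to 3, when Cox6a2 runs from 1.13 to -3.0, and the widespread forms stay between -0.74 and 0.49.

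The widespread forms did not share these swings. Cox6a1 (chromosome 5, 115795651 to 115798990) ranged from -0.29 on day 6 to 0.49 on day 14 around a median of 0.28 and was called higher, with a mean of 0.24 ± 0.24 (limma adjusted p = 0.0407), a call lost with all 10 days (limma adjusted p = 0.126). Cox8a averaged 0.20 ± 0.24 (limma adjusted p = 0.0716) and Cox7a2 averaged -0.04 ± 0.30. Cox7a2l, a factor that joins complexes III and IV, averaged -0.10 ± 0.18, and Cox7b averaged -0.10 ± 0.32. None of these 4 was called, and 53.1% of the 50-base sequences of Cox7a2l also occur elsewhere in the genome.

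Other isoforms were examined next. Cox4i2, the lung-type and oxygen-responsive form of Cox4, was under the filter and ranged from -0.07 on day 6 to 3.39 on day 1 around a median of 1.12, above 0 on all other days. Its mean was 1.33 ± 0.94, and the limma fit without the filter gave an adjusted p = 0.00683. The testis forms were Cox6b2, at 0.44 ± 0.60 (limma adjusted p = 0.0701) beside 0.17 ± 0.35 for the widespread Cox6b1, Cox7b2, at -0.75 ± 0.94 and under the filter, and Cox8c, at 0 on 7 of the 10 days. The 3 genes of the c subunit ring, Atp5g1, Atp5g2 and Atp5g3, averaged -0.33 ± 0.55, -0.45 ± 0.93 and -0.19 ± 0.35. All of the 50-base sequences of Atp5g2 and 89.4% of those of Atp5l also occur elsewhere in the genome, and the values of both are uncertain.

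Genes around the respiratory chain were examined as lists. Assembly factors, which insert cofactors and join the subunits, were mostly not called: 4 of 26 were lower and none higher by limma (26.3% and 26.2% of all genes), among them Lrpprc, which stabilizes mitochondrial messenger RNAs, at -0.56 ± 0.23, and Nubpl, a complex I iron-sulfur factor, at -0.55 ± 0.28, each below 0 on 9 of 9 days but above it on day 6, at 0.22 and 0.70. Of 13 electron carrier and Coenzyme Q genes, 2 were higher and 5 lower. Etfdh, which feeds electrons from fatty acid oxidation into ubiquinone, averaged 0.63 ± 0.27 and was above 0 on each of the 9 days (limma adjusted p = 0.000523) and at -0.22 on day 6. Coq7, a hydroxylase of Coenzyme Q synthesis, was lower at -0.65 ± 0.38, with -0.05 on day 6. Of 17 citric acid cycle genes limma called 1, fumarase Fh1, lower at -0.37 ± 0.29, with -0.23 on day 6. The list followed the subunit genes on day 0 (median -0.33) and over the step to day 1 in the knockdown line (median 0.65).

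Regulators of nuclear-encoded mitochondrial genes came next. Of 18 tested, 10 were lower and 3 higher by limma, where 26.3% and 26.2% of all genes were, with a list median of -0.37 over the 9 days and of 0.22 on day 6. Tfam, which packages mitochondrial DNA and promotes its transcription, was lower on 9 of 9 days at -0.98 ± 0.45, Nrf1 at -0.41 ± 0.17, the GABP subunit Gabpb1 at -0.46 ± 0.27, Yy1 at -0.36 ± 0.20 and the coactivator Pprc1 at -0.62 ± 0.29, also on 9 of 9 days. Esrrb, which is also a pluripotency gene, was lower at -2.44 ± 1.35, and Myc at 1.04 ± 1.12 and Ppargc1a at 0.84 ± 0.98 were higher. Myc was above 0 on 7 of the 9 days and Ppargc1a on 6. Ppargc1a stood at -0.20, -0.44 and -0.52 on days 10, 12 and 14. Day 6 had the opposite sign for Tfam (0.49), Nrf1 (0.12), Gabpb1 (0.22), Pprc1 (0.53), Esrrb (0.36) and Ppargc1a (-1.63), and the same sign for Yy1 (-0.41) and Myc (0.54). Of the 5 members tested whose windows hold the NRF1 letters, Cox6a1 and Ndufa8 were higher and Atp5k, Atp5l and Ndufa11 were not called.

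The machinery that makes and imports mitochondrial proteins was examined last. Of 75 mitochondrial ribosomal protein genes, 31 were lower and 1 higher by limma (list median -0.17), and of 17 import genes 7 were lower (list median -0.23), where 26.3% of all genes were, with the outer membrane receptors Tomm70a at -0.67 ± 0.18, Tomm20 at -0.51 ± 0.37 and Tomm22 at -0.53 ± 0.34 and the import pore Tomm40 at -0.51 ± 0.22. On day 6 these 4 lay between -0.04 and 0.08. Lower calls were not particular to mitochondrial genes. Of 72 cytosolic ribosomal protein genes, 60 were lower and 0 higher by limma (list median -0.47, and 0.23 on day 6). Among 5 uncoupling and antioxidant genes, Txn2 at -0.89 ± 0.65 and Gpx4 at -0.42 ± 0.36 were lower, with -0.10 and -0.14 on day 6. On the same scale, the median of the mean ratio was -0.03 for the 77 subunit genes and 0.01 for all 13608 genes tested.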

How the data were processed

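RNA was measured by RNA-seq in 20 libraries, 10 per line, grouped by their labels. The authors made libraries with the TruSeq RNA kit v2, sequenced 50 cycles on a HiSeq 2000, aligned to mm9 in CASAVA 1.8.2 and normalized gene counts with DESeq. They deposited 28 tables of 2 libraries each, in log2 values from which the pair mean had been subtracted: 10 within a day and 9 of consecutive days per line. Each table was normalized separately, and log2 counts below 0 stand at 0, so ratios of low genes are understated. Typical levels were inferred from the rounding step of the values.

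Ratios of 9 days were fitted with limma 3.58.1 in R 4.3.3 (intercept for the lines, day for slopes), Benjamini-Hochberg adjusted over 13608 genes, threshold 0.05. Both libraries of a day form a pair by their labelled day. Deviations of paired libraries from their group means correlated over 0.1 on 8 of 9 days (0.00735 to 0.446, the lowest on day 0). The library of the same day was the best match on only 5 of the 9 days. Around loops of 4 neighboring tables the ratios closed on 8 of 9 loops; in that of days 3 and 4 they did not, by -0.32 to 0.15 for the 77 members. Named genes were core subunits, isoform pairs, up to 3 called members per complex and direction with 1 sign on at least 8 days, up to 4 steepest slopes per trend and direction, and the 3 genes that are not subunits; 1 member is counted but not reported here. Members and lists were chosen with earlier results of these data known. Positions are from GENCODE vM1 (NCBIM37) and promoter windows from RefSeq. 50-base matches elsewhere in the genome were exact only, and over 20% of the sequences had one in 13 of the 77 members tested. Scripts were tested on simulated data.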

Additional observations from a re-analysis of the deposited data

Results flagged for a closer look

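On 4 genes the value of day 0 lay farther from the other 9 days than Dixon's 95% limit allows: Ndufs6 at -1.13, Ndufa12 at -0.99, Cox7a2 at -0.74 and Atp5c1 at -0.59. Cox8c lay apart on day 12 at -1.23, a gene near the floor that was at 0 on most days. Over 55 series of 10 days examined, 5 were beyond the limit, and chance alone puts about 1 in 20 there. The slope of the Ndufv3 ratio differed between the lines by 0.068 per day (limma adjusted p = 0.0499), higher in the knockdown on 9 of 9 days, and the call was lost in 8 of the 9 fits that leave out a day.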

How the results depend on the processing

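Of the 77 genes, 6 were higher and 6 lower. Higher were 2 with all 10 days, 2 by the exact sign-flip permutation test and 3 in the unpaired fit with no replicate block; leaving out 1 day gave 2 to 13 higher, 13 without day 0, and 4 to 7 lower. Ndufv3 and Atp5s (higher) and Sdha, Atp5b, Cox6c, Cox5a and Ndufb9 (lower) were called with all 10 days, by the sign-flip test and with recentred tables. The control slopes gave 1 rising and 21 falling, with 0 rising on log2(day + 1), at a log2 count of at least 8 and with the step of days 3 to 4 taken through the other line. The fit at a log2 count of at least 8 holds only the 64 members at that level, so a gene below it is absent and not retested. Leaving out a day gave 0 to 3 rising and 9 to 54 falling. The knockdown slopes gave 0 rising and 0 falling on log2(day + 1) and 0 rising through the other line; leaving out a day gave 0 to 2 rising and 0 to 31 falling, 31 without day 0. The difference in slope gave 0 rising with all 10 days, on log2(day + 1) and with recentred tables, 1 falling (Cox7a1) with recentred tables, and 0 to 1 rising and 0 to 1 falling when a day was left out. Beside the 41 counts of 0, limma gave 0 to 7 genes at an unadjusted p under 0.05. Shares over all genes are not given for these alternative settings, so their counts cannot be set against a background. The mean of Hprt ranged from -4.19 to -3.88. No complex median moved by more than its spread between days. With all 10 days 1 uncalled mean changed sign, Ndufv2 to -0.0216. Leaving out a day turned the sign of 9 uncalled means, which ranged from -0.0645 to 0.0456 (Atp5c1), -0.135 to 0.0560 (Atp5l), -0.0134 to 0.0389 (Cox4nb), -0.0757 to 0.0507 (Cox7a2), -0.0232 to 0.180 (Ndufa12), -0.0718 to 0.0155 (Ndufs7), -0.0389 to 0.0776 (Ndufv2), -0.0741 to 0.0396 (Sdhd) and -0.0499 to 0.0278 (Uqcrfs1). The cause of these changes was not tested. Among values of single genes, 791 stayed on their side of the threshold, 138 lost the call, 7 gained it and 18 changed sign. The number of days and the lack of replicates within a day limit precision, and the depth of single libraries is unknown.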
